A study of Mus musculus with 9 samples.

Results

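The genes described are 10 targets through which the beta-catenin pathway feeds back on itself: Axin2, Bambi, Apcdd1, Nkd1, Nkd2, Lgr5, Rnf43, Znrf3, Sp5 and Tnfrsf19. They were chosen by name, as every probe set (a group of short probes that together measure a transcript) whose only gene symbol in the array's annotation was one of these, which gave 26 probe sets of 45037 and 10 genes of 18193. Axin2, Bambi and Apcdd1 (3 of its 4 bright probe sets) were higher on all 3 arrays labelled Cre than on any GFP array. Bambi and the same 3 Apcdd1 probe sets were also higher on all 3 arrays labelled WNT4. Of all probe sets, 2.98% were separated upward in this way with Cre and 9.28% with WNT4. Rnf43 and Nkd1 1429506_at were also separated with Cre, but read at or near background. The other targets were at or near background or, for Znrf3, overlapped between groups. No member passed the test across all probe sets in any comparison.

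In the canonical WNT pathway, a WNT ligand bound to a Frizzled and LRP receptor stops the destruction complex from degrading beta-catenin, which then enters the nucleus and acts with TCF/LEF factors on genes. Many of these targets encode brakes or tuners of the same pathway, so their transcripts are widely read as a sign that it is active. In the ovary, WNT4 is made by granulosa cells, the somatic cells that surround the oocyte and make oestradiol.

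The data are 9 Affymetrix arrays of RNA from granulosa cells kept in culture, 3 arrays for each of 3 adenoviruses. Donor mice were 20 to 26 days old and of several genotypes, and cells were taken 48 h after eCG, a gonadotropin that drives follicle growth. All cells had attached overnight and were then infected for 24 h without serum at a multiplicity of about 50. The GFP arrays are the controls (a virus for eGFP), the Cre arrays had a virus for Cre recombinase, and the WNT4 arrays a virus that overexpresses WNT4. The sources used here do not give which genotype each group had, and so what Cre recombined. The replicates are called biological, and nothing further says that they came from separate mice or cultures, so p-values here speak only of the spread among these arrays, which may be technical. In such bulk samples, fewer cells of a type and less RNA per cell cannot be told apart.

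Each gene in the marker, target and partner lists below was represented by a single probe set, the brightest on average. Any other probe sets of the gene did not enter the list counts. All 11 granulosa markers measured (among them Foxl2, Fshr, Inha and Amhr2) were above background on all 9 arrays. Their list means on the log2 scale were 10.53 to 10.78 with GFP, 10.09 to 10.61 with Cre and 10.11 to 10.60 with WNT4. Of the 11, 0 had a higher mean with Cre than with GFP and 4 had a higher mean with WNT4. The median differences were -0.15 and -0.11, beside -0.02 and -0.0016 over all probe sets. At a limma unadjusted p under 0.05, 3 of the 11 were lower and 0 higher in each comparison with GFP. Of all probe sets, 1.22% were lower with Cre and 3.91% with WNT4, but 42.2% of all were above background on no array. Bmpr1b was -0.86 ± 0.29 with Cre and -1.56 ± 0.29 with WNT4, and Esr2 was -1.25 ± 0.36 with WNT4. None of the 11 passed the adjusted threshold. Wnt4 did not settle the labels. Its probe set 1450782_at read 10.18 to 11.25 on the Cre arrays. It read lower, 8.97 to 9.89, on the WNT4 arrays and 9.13 to 9.93 on the GFP arrays. The other Wnt4 probe set, 1441687_at, read 9.13, 7.57 and 8.27 on GFP arrays 1, 2 and 3, 10.01, 9.81 and 9.05 on the Cre arrays and 9.91, 9.62 and 8.36 on the WNT4 arrays, so WNT4 was 0.97 ± 0.49 (SE) above GFP with overlap and 0.33 below Cre. The sources used here do not say whether either probe set lies in the part of Wnt4 carried by the virus, so groups are called by their labels throughout. Oocyte markers (9 genes, 6 of them above background on all 9 arrays) had list means of 6.46 to 7.39 with GFP, 6.62 to 7.70 with Cre and 6.77 to 8.31 with WNT4, highest on WNT4 1 and Cre 1. Theca and stromal markers (9 genes, 7 above background on all 9 arrays) ran from 6.86 to 7.43, 7.02 to 7.43 and 6.86 to 8.17, highest on WNT4 1. Of 6 endothelial markers, 4 were above background on no array. Of 8 leukocyte markers, 7 were above background on all 9 arrays. Leukocyte list means were 6.33 to 7.13 with GFP, 6.24 to 7.41 with Cre and 6.26 to 7.38 with WNT4. Replicate 3 was highest in each group. Surface epithelium markers (9 genes, 2 above background on all 9 arrays) had list means of 5.86 to 6.11. Among them, Krt19 read 7.27 on Cre 3 and 7.12 on WNT4 3, against 5.34 to 6.12 on the other arrays. Any part of these cells in the member values was not tested.

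Promoters from RefSeq (GRCm38.p6, 250 bases before to 50 after each transcript start) were available for 6 of the 10 genes, with 8 promoters in all: Axin2, Nkd1, Nkd2, Rnf43, Sp5 and Tnfrsf19. They were searched on both strands for the TCF/LEF core motif CTTTGAT or CTTTGAA, which share all but the last letter. Shown are the promoter of Axin2, against which the other genes are set, and the promoters of the only 2 of 8 (25%) that held the motif, those of Sp5 and Tnfrsf19. Capitals mark the motif, which in Tnfrsf19 is read from the opposite strand.
Axin2, chr11:108920099-108920398, plus strand: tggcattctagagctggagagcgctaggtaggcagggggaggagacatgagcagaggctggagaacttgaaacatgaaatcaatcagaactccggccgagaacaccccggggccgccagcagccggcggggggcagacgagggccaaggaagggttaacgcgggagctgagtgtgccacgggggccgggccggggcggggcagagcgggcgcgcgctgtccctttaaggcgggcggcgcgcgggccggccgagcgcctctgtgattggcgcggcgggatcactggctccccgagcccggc
Sp5, chr2:70474673-70474972, plus strand: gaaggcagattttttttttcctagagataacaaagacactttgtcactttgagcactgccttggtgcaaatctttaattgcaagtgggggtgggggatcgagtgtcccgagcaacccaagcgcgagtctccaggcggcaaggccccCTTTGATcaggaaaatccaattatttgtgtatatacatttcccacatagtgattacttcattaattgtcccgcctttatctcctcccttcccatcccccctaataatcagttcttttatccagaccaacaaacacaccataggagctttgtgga
Tnfrsf19, chr14:61037938-61038237, minus strand: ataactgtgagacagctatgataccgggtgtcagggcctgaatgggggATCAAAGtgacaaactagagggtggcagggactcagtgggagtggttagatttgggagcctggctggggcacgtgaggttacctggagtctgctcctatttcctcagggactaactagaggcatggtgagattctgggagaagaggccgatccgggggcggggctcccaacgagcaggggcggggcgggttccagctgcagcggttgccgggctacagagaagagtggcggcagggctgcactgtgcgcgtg
Of all 32851 promoters of that length, 2842 (8.65%) held either motif, 1225 (3.73%) CTTTGAT and 1687 (5.14%) CTTTGAA. The Axin2 window holds neither motif, and Axin2 read well above background. The Sp5 promoter and the Tnfrsf19 promoter shown hold CTTTGAT, and both genes read near background as described next. The other Tnfrsf19 promoter holds neither motif. Whether the motif bears on these levels was not tested.

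Values are RMA expression on the log2 scale, so a difference of 1 is a doubling. As a background limit for each array, the 95th percentile of 81 probe sets for smell, trace amine and vomeronasal receptors was taken. These genes are not known for expression in granulosa cells, and the limit was 5.36 to 5.54. Of the 26 member probe sets, 9 were above the limit on all 9 arrays (44.5% of all probe sets were), 8 on some arrays and 9 on none (42.2% of all). The 9 bright ones belong to 6 genes: Axin2, Bambi, Apcdd1 (4 probe sets), Znrf3, Nkd1 and Nkd2. With the 99th percentile as the limit, 7 probe sets of Axin2, Bambi, Apcdd1 and Znrf3 were left, and those of Nkd1 and Nkd2 were not. Lgr5, Rnf43, Sp5 and Tnfrsf19 had no probe set above the limit on all arrays.

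**Figure D1:**
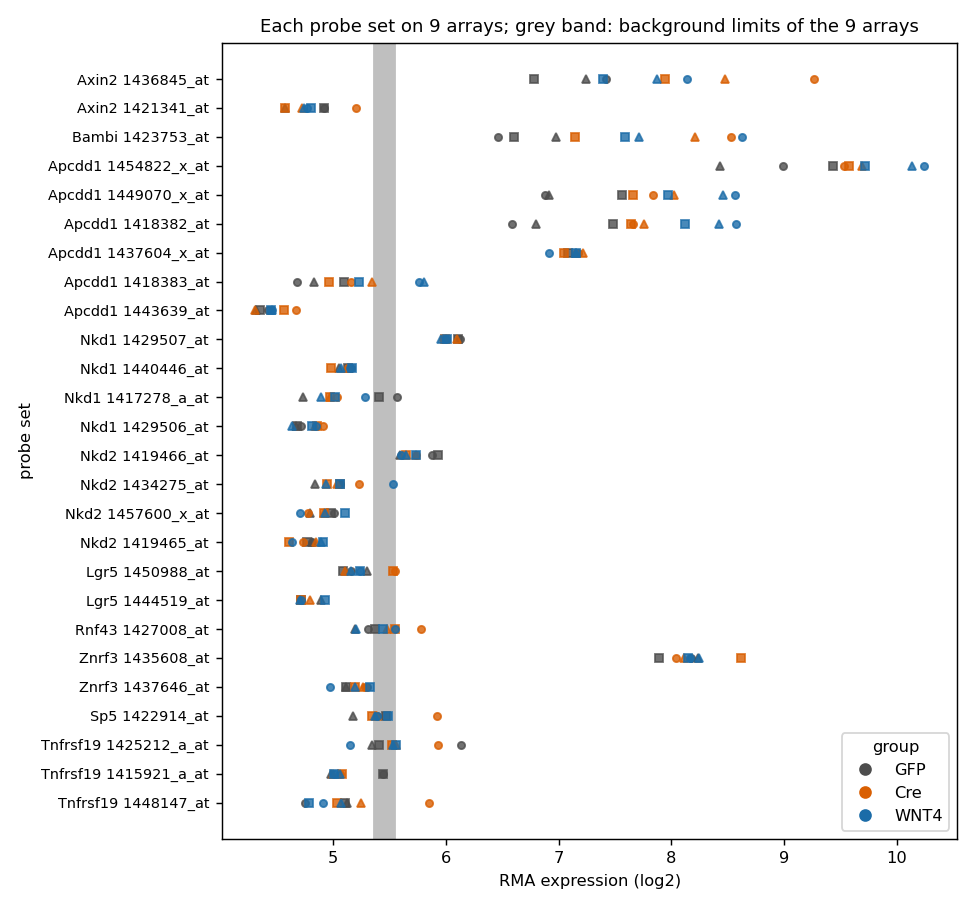
RMA expression (log2, horizontal axis) of each of the 26 member probe sets (vertical axis, in gene order) on the 9 arrays; colour is the group, and circle, square and triangle are replicates 1, 2 and 3. The grey band spans the arrays' background limits, 5.36 to 5.54; 9 probe sets lie to its right on all arrays.

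Axin2 encodes a scaffold of the destruction complex and is among the most widely used reporters of beta-catenin activity. Its bright probe set 1436845_at read 7.42, 6.78 and 7.24 on GFP arrays 1, 2 and 3, 9.27, 7.94 and 8.47 on Cre arrays 1, 2 and 3, and 8.14, 7.39 and 7.87 on WNT4 arrays 1, 2 and 3. The 3 Cre arrays lay above all GFP arrays. The WNT4 arrays lay between, with WNT4 2 below GFP 1 and WNT4 1 above Cre 2. In all 3 groups replicate 1 read highest and replicate 2 lowest. The means were 7.15 ± 0.33 with GFP, 8.56 ± 0.67 with Cre and 7.80 ± 0.38 with WNT4 (SD, n = 3 each). In limma the Cre mean was 1.41 ± 0.33 (SE) above GFP, 2.67-fold, with a 95% interval of 0.66 to 2.17. That had an unadjusted p of 0.00228 and an adjusted p of 1.0 (Benjamini-Hochberg over 45037 probe sets). The WNT4 mean was 0.65 ± 0.33 above GFP (1.57-fold, limma adjusted p = 0.452) and 0.76 below Cre (difference -0.76 ± 0.33, adjusted p = 0.799). Cre 1 weighed on these values: without it the Cre difference was 1.06 and WNT4 minus Cre was -0.41.

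The second Axin2 probe set, 1421341_at, stayed between 4.57 and 5.20 and above background on no array, and did not separate the groups. Averaging both Axin2 probe sets would lower the Cre difference from 1.41 to 0.72 and the WNT4 difference from 0.65 to 0.31.

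**Figure D2:**
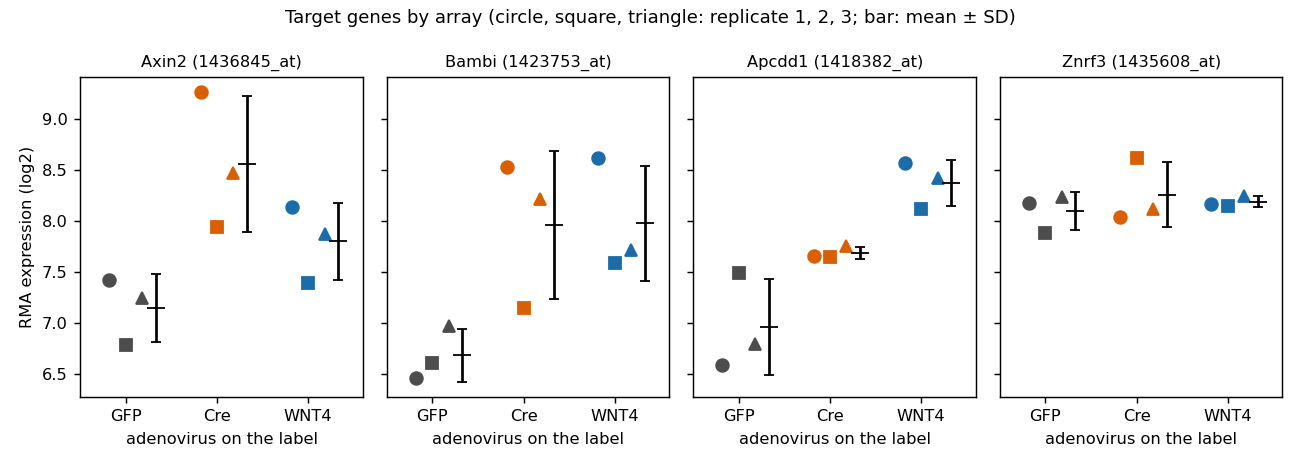
RMA expression (log2, vertical axis) of Axin2, Bambi, Apcdd1 and Znrf3 by group (horizontal axis); points are single arrays and bars are the mean ± SD of 3. Axin2 is higher on the Cre arrays (7.94 to 9.27) than on the GFP arrays (6.78 to 7.42) and overlaps between Cre and WNT4. Apcdd1 is shown by 1418382_at, its bright probe set with the lowest limma p in WNT4 minus GFP. That probe set is highest on the WNT4 arrays (8.12 to 8.57). Znrf3 overlaps in all groups.

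Among the secreted and membrane members, Bambi is a decoy receptor that lacks a kinase domain and dampens TGF-beta and BMP signals. Its only probe set, 1423753_at, read 6.46, 6.60 and 6.97 on GFP arrays 1, 2 and 3, 8.53, 7.14 and 8.21 on the Cre arrays and 8.62, 7.59 and 7.71 on the WNT4 arrays. All 6 treated arrays lay above all 3 GFP arrays, and the Cre and WNT4 arrays overlapped. The Cre mean was 1.28 ± 0.38 (SE) above GFP, 2.43-fold, with a limma adjusted p of 1.0 (unadjusted 0.00837). The WNT4 mean was 1.30 ± 0.38 above GFP, 2.46-fold, with an adjusted p of 0.241 (unadjusted 0.00786). Between WNT4 and Cre the difference was 0.02 ± 0.38, with an interval of -0.84 to 0.87 that leaves room for a difference either way. Both comparisons with GFP share the same 3 GFP arrays. The highest Bambi arrays, WNT4 1 and Cre 1, were also the highest in oocyte markers, and WNT4 1 in theca and stromal markers. WNT4 1 also had the largest differences between 3′ and 5′ control probe sets, a sign of RNA quality (1.38 for actin and 2.17 for Gapdh, against 0.98 to 1.30 and 0.95 to 1.88 on the other 8 arrays), and the lowest array weight in limma (0.67). Their part in the Bambi values was not tested. Without Cre 1 the Cre difference was 1.00, and without WNT4 1 the WNT4 difference was 0.97.

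Apcdd1 is a membrane glycoprotein that binds WNT and LRP proteins and inhibits the pathway. Of its 6 probe sets, 1418382_at read 6.59, 7.48 and 6.80 on GFP arrays 1, 2 and 3, 7.66, 7.65 and 7.76 on the Cre arrays and 8.57, 8.12 and 8.42 on the WNT4 arrays. The 3 groups did not overlap, with GFP lowest and WNT4 highest. The WNT4 mean was 1.41 ± 0.22 (SE) above GFP, 2.67-fold, with a limma adjusted p of 0.125, and 0.68 ± 0.22 above Cre, 1.61-fold, with an adjusted p of 0.773. The Cre mean was 0.73 ± 0.22 above GFP, 1.66-fold (adjusted p = 1.0). WNT4 1, the array with the most oocyte and stromal signal and the largest 3′ to 5′ differences, was also the highest for this probe set; without it WNT4 was 1.32 above GFP and 0.58 above Cre. WNT4 minus Cre ran upward for Apcdd1 and downward for Axin2, and neither passed the adjusted threshold.

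Probe sets 1449070_x_at and 1454822_x_at gave the same order of group means. Cre and WNT4 overlapped on 1449070_x_at, where Cre 3 (8.02) lay above WNT4 2 (7.97), and did not overlap on 1454822_x_at. The former was 0.72 ± 0.22 higher with Cre and 1.21 ± 0.22 higher with WNT4 than with GFP (limma adjusted p = 1.0 and 0.170), and the latter was 0.65 ± 0.24 and 1.08 ± 0.24 higher (adjusted p = 1.0 and 0.178). The suffix x marks probes that can match other transcripts. The annotation gives 1418382_at, 1418383_at and 1449070_x_at the same source sequence, so these are not independent readings of the gene. Of the remaining sets, 1437604_x_at was bright but flat, at 6.91 to 7.21 on all 9 arrays, and 1418383_at passed the background limit only on WNT4 1 (5.76) and WNT4 3 (5.81). The last, 1443639_at, was above background on no array. Leaving out WNT4 2 brought 1418382_at, 1449070_x_at and 1418383_at past the threshold in WNT4 minus GFP, with differences of 1.54, 1.40 and 0.92 and limma adjusted p of 0.0399, 0.0399 and 0.0424; 748 of all probe sets then passed.

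**Figure D3:**
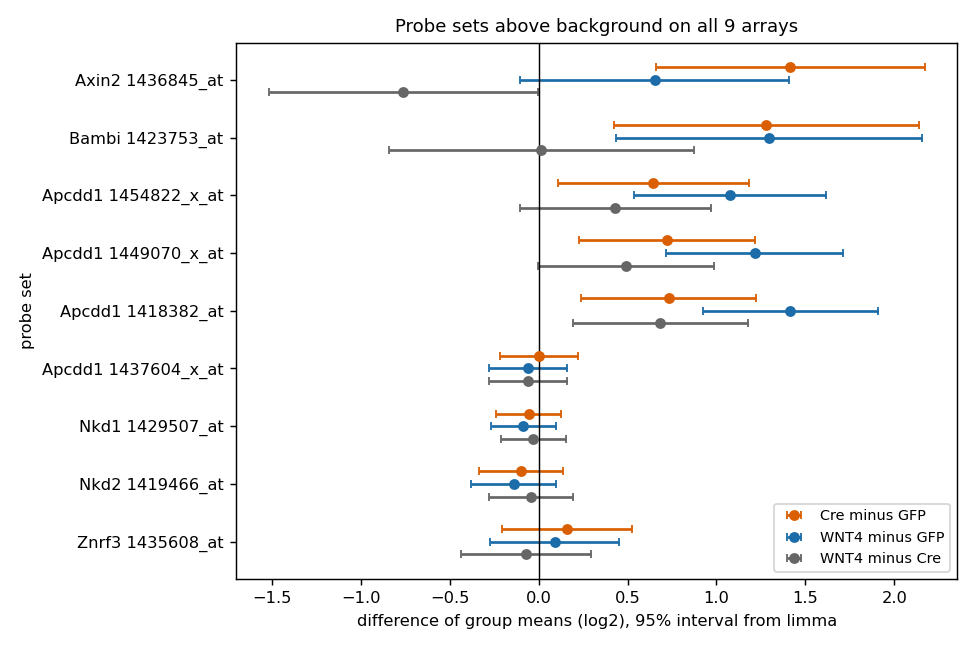
Differences between group means (log2, horizontal axis) with 95% intervals from limma for the 9 member probe sets above background on all arrays (vertical axis); colour is the comparison. Bambi and 3 Apcdd1 probe sets lie above 0 in both comparisons with GFP and Axin2 in Cre minus GFP, while Nkd1, Nkd2, Znrf3 and Apcdd1 1437604_x_at lie near 0.

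Znrf3 and Rnf43 are membrane ubiquitin ligases that remove Frizzled receptors from the cell surface, and Lgr5 is a receptor for the R-spondins that block them. Znrf3 (1435608_at) read 8.17, 7.89 and 8.24 on GFP arrays 1, 2 and 3, 8.04, 8.62 and 8.12 on the Cre arrays and 8.17, 8.15 and 8.25 on the WNT4 arrays. The groups overlapped, although the transcript was well above background. The difference from GFP was 0.16 ± 0.16 with Cre, with an interval of -0.20 to 0.52, and 0.09 ± 0.16 with WNT4, with an interval of -0.27 to 0.45 (-0.075 for Znrf3 1435608_at, WNT4 minus GFP after quantile normalization). The other Znrf3 probe set, 1437646_at, was above background on no array.

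Rnf43 (1427008_at) read 5.31, 5.37 and 5.19 on GFP arrays 1, 2 and 3, 5.78, 5.55 and 5.47 on the Cre arrays and 5.54, 5.44 and 5.20 on the WNT4 arrays. The 3 Cre arrays were above all GFP arrays and, with WNT4 1, were the only 4 above the background limit, by small margins. The Cre difference was 0.31 ± 0.12 (limma adjusted p = 1.0, unadjusted 0.0321). Lgr5 (1450988_at) passed the limit only on Cre 1 (5.55) and Cre 2 (5.53) and ran from 5.09 to 5.30 on the other 7 arrays, so Cre 3 stood with the controls. Its second probe set, 1444519_at, stayed between 4.71 and 4.92.

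The cytoplasmic inhibitors Nkd1 and Nkd2 bind Dishevelled. Nkd1 (1429507_at) stayed between 5.96 and 6.12 on all 9 arrays. Nkd2 (1419466_at) read 5.88, 5.93 and 5.60 on GFP arrays 1, 2 and 3, 5.73, 5.64 and 5.73 on the Cre arrays and 5.60, 5.73 and 5.65 on the WNT4 arrays. Both overlapped between groups and were flat: the differences from GFP were -0.06 ± 0.08 and -0.09 ± 0.08 for Nkd1 and -0.10 ± 0.10 and -0.14 ± 0.10 for Nkd2, with Cre and WNT4. The other 3 probe sets of each gene passed the limit on at most 1 array.

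Sp5, a transcription factor that acts with and limits TCF/LEF activation, and Tnfrsf19, a receptor of the TNF family, stayed near background. Sp5 (1422914_at) read 5.39, 5.47 and 5.18 on GFP arrays 1, 2 and 3, 5.92, 5.35 and 5.39 on the Cre arrays and 5.39, 5.48 and 5.37 on the WNT4 arrays. It passed the limit on Cre 1 alone, the array with the highest Axin2. Tnfrsf19 1448147_at did the same, at 5.85 on Cre 1 against 4.75 to 5.25 on the other 8 arrays, while Tnfrsf19 1425212_a_at was highest on GFP 1 (6.14) and passed the limit on 6 arrays. The third Tnfrsf19 probe set, 1415921_a_at, stayed between 4.98 and 5.44. Of the 4 genes without a probe set above background on all arrays, Rnf43, Sp5, Lgr5 1450988_at and Tnfrsf19 1448147_at each read highest on Cre 1. Their other probe sets did not: Tnfrsf19 1425212_a_at was highest on GFP 1, Tnfrsf19 1415921_a_at on GFP 2 and Lgr5 1444519_at on WNT4 2. The share of all probe sets that read highest on Cre 1 was not counted.

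**Figure D4:**
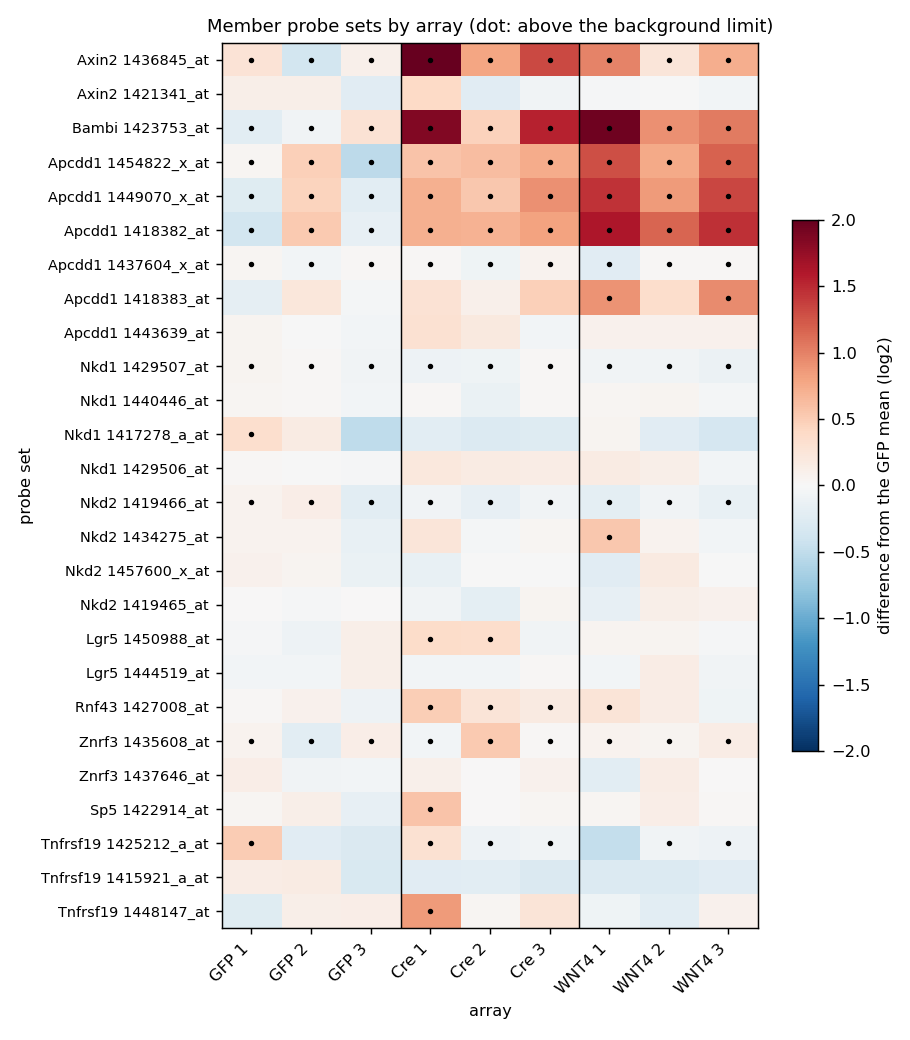
Difference of each member probe set (vertical axis) from its GFP mean on each array (horizontal axis, log2, colour), with a dot where the value is above the array's background limit. Axin2 1436845_at, Bambi and 3 bright Apcdd1 probe sets are above the GFP mean on all 6 treated arrays. So are Apcdd1 1418383_at and Sp5 1422914_at, which lay mostly at background.

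Over the 26 probe sets, limma called none at an adjusted p under 0.05 in Cre minus GFP (0% of all probe sets were called), WNT4 minus GFP (0.0155% of all) or WNT4 minus Cre (0% of all). In Cre minus GFP, 6 were higher at an unadjusted p under 0.05, against 1.01% of all, and none was lower, against 1.22% of all. In WNT4 minus GFP, 5 were higher, against 9.12% of all, and none was lower, against 3.91% of all. In WNT4 minus Cre, 2 were higher, both of Apcdd1, against 5.07% of all, and 1 was lower, Axin2, against 1.17% of all. Groups did not overlap, with the higher values under treatment, for 7 of 26 in Cre minus GFP (2.98% of all), 6 of 26 in WNT4 minus GFP (9.28% of all) and 2 of 26 in WNT4 minus Cre (5.38% of all). Several of these counts rest on probe sets of 1 gene, Apcdd1. The median difference of the 26 was 0.11, 0.02 and -0.04 in the 3 comparisons, beside -0.02, 0.00 and 0.02 over all probe sets. With arrays centred on the 75th percentile, the all-probe median in WNT4 minus GFP was -0.15, and 7 rather than 16 of the 26 members were higher; of all probe sets with an unadjusted p under 0.05, 2056 of 6821 rather than 4109 of 5870 were higher. Under that centring 5 members were higher and 1 lower at an unadjusted p under 0.05. In WNT4 minus Cre it gave an all-probe median of -0.08, with 1 member higher and 2 lower, 5 rather than 11 of the 26 positive, and 1110 of 2248 rather than 2282 of 2808 of all probe sets higher. In Cre minus GFP, centring on the median instead gave 583 of 915 rather than 455 of 1006 of all probe sets higher, with 7 members higher and none lower.

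To ask which targets follow Axin2 array by array, each of the other 24 probe sets was set against Axin2 1436845_at over the 9 arrays; these relations include the difference between the groups. Bambi had r = 0.816 (exact permutation p = 0.00594) and rho = 0.783 (exact permutation p = 0.0172), two-sided. All permutation p-values here shuffled the 9 arrays without regard to group, so they include group differences. They are not adjusted for the 24 relations. Without the arrays farthest from the Axin2 median, Cre 1 and GFP 2, r was 0.740. Its fitted slope was 0.88 ± 0.21 log2 per log2 of Axin2, and 0.89 ± 0.27 with the group means removed. With replicate number also in the model, the latter was 1.20 (limma adjusted p = 0.958). Axin2 had the same replicate order in all 3 groups, so relations with it are mixed with replicate number. No slope of the 24 passed limma's test over 45035 probe sets (adjusted p = 1.0 for Bambi; 0% of all passed), and 3 were positive at an unadjusted p under 0.05, those of Bambi, Rnf43 and Tnfrsf19 1448147_at, against 0.628% of all. Within groups none passed either (0% of all), and Bambi alone had an unadjusted p under 0.05, against 1.39% of all.

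Rnf43 had r = 0.737 (exact permutation p = 0.0238) and rho = 0.733 (exact permutation p = 0.0311), with r = 0.577 without those arrays, although most of its values were at background. Tnfrsf19 1448147_at had r = 0.708 but rho = 0.333 (exact permutation p = 0.0396 and 0.385), and Sp5 had r = 0.635 but rho = 0.187 (exact permutation p = 0.0793 and 0.642). Without Cre 1 and GFP 2 their r was 0.525 and 0.283, so the relation of Sp5 rests on those arrays. Nkd1 1429506_at had r = 0.734 (exact permutation p = 0.0212) but was above background on no array. Apcdd1 1418382_at had r = 0.330 (exact permutation p = 0.389) and rho = 0.450 (exact permutation p = 0.230). Without Cre 1 and GFP 2 its r was 0.549, and r rose from 0.433 to 0.663 for 1449070_x_at and from 0.377 to 0.667 for 1454822_x_at, so these relations depend on those arrays. Apcdd1 was highest on WNT4 1 and Axin2 on Cre 1. Znrf3 had r = 0.0849 (exact permutation p = 0.826) and rho = -0.050 (exact permutation p = 0.912).

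**Figure D5:**
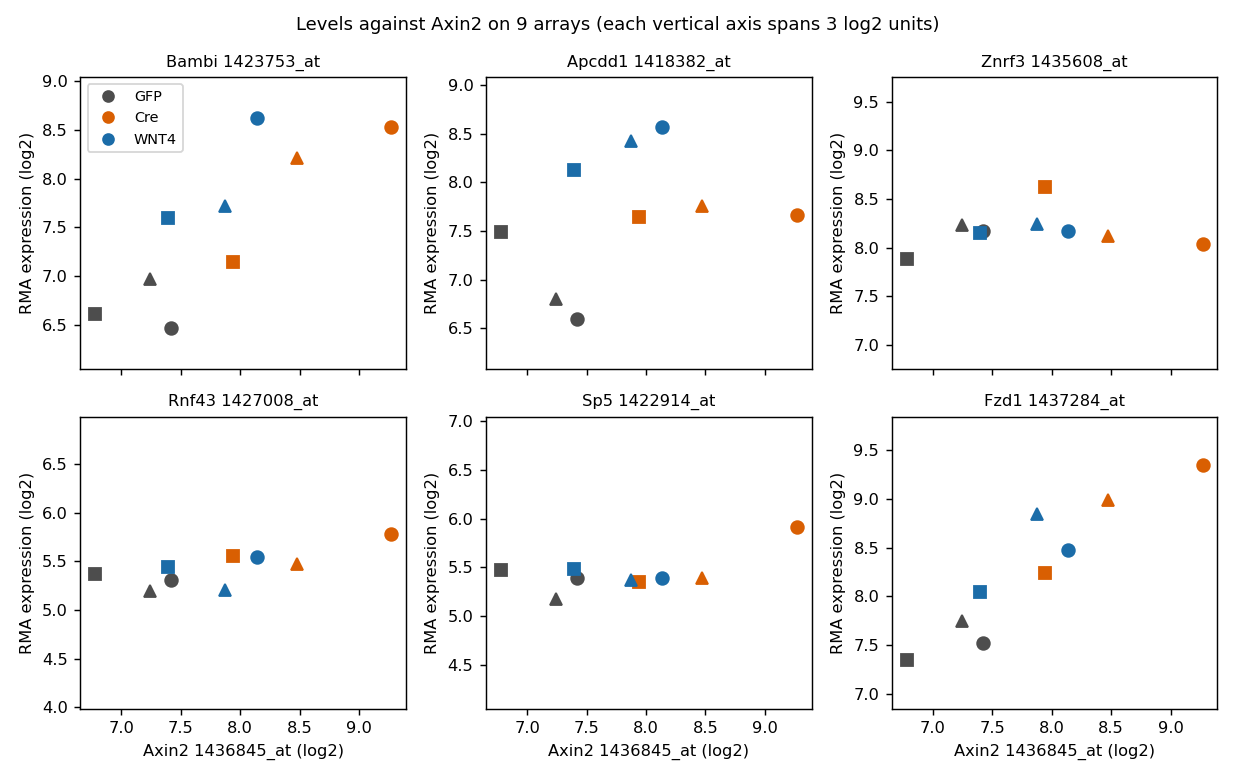
RMA expression (log2, vertical axes, each spanning 3 log2 units) of Bambi, Apcdd1, Znrf3, Rnf43, Sp5 and the Frizzled gene Fzd1 against Axin2 1436845_at (log2, horizontal axes) on 9 arrays, coloured by group. Bambi (r = 0.816) and Fzd1 (r = 0.926) rise with Axin2; Znrf3 (r = 0.0849) stays level.

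Of 5710 bright and variable probe sets of other genes, that of Fzd1 was the one most like Axin2, with r = 0.926 over the 9 arrays and 0.859 without Cre 1 and GFP 2. Fzd1, a WNT receptor, read 7.52, 7.34 and 7.75 on GFP arrays 1, 2 and 3, 9.35, 8.24 and 8.99 on the Cre arrays and 8.48, 8.04 and 8.84 on the WNT4 arrays. All 6 treated arrays lay above the GFP arrays, by 1.32 ± 0.29 with Cre and 0.92 ± 0.29 with WNT4 (limma adjusted p = 1.0 and 0.260). Only 6 of the 5710 had a higher r with Axin2 than Bambi had; all these values share the same arrays and are a description.

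Of 32 other genes known as beta-catenin/TCF targets in some tissue, 27 were measured, 15 of them above background on all 9 arrays. Those above it on none were Lef1, Dkk4, Notum, Wif1, Msx2, Cdx1, Fgf20 and Prox1. The results for this list are readings of 1 probe set per gene, although Jag1 and Id2 have 3 and Sox4 has 8. None of the 27 passed limma's adjusted threshold in any comparison. At an unadjusted p under 0.05, 1 was higher and 1 lower in Cre minus GFP, 3 were higher in WNT4 minus GFP and none passed in WNT4 minus Cre. Over all probe sets the shares higher were 1.01%, 9.12% and 5.07%, and the 3 of 27 in WNT4 minus GFP are near that share. These shares include the 42.2% of probe sets above background on no array, so they are only a loose reference for the list. The receptor Fzd7 was 0.58 ± 0.19 higher with WNT4 than with GFP (adjusted p = 0.270) and 0.43 ± 0.19 higher with Cre. Id2, an inhibitor of helix-loop-helix factors, was 0.49 ± 0.18 and 0.51 ± 0.18 higher, and the Notch ligand Jag1 was 0.67 ± 0.24 higher with WNT4. Cldn2, a tight junction protein, was -0.23 ± 0.10 with Cre and above background on 1 array only. In WNT4 minus Cre the lowest p-values were those of Sox4 (0.28 ± 0.20), Jag1 (0.31 ± 0.24) and Fst (-0.16 ± 0.14), all over 0.05 before adjustment. The medians of the 27 differences were -0.01, -0.03 and -0.02 in the 3 comparisons.

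Of 27 genes whose products the members act on or with, 21 were above background on all 9 arrays and Lrp5, Rspo1, Rspo3 and Rspo4 on none. Each was again counted by 1 probe set, although Axin1 and Lgr6 have 2 and Fzd3 has 6. None of the 27 passed limma's adjusted threshold. At an unadjusted p under 0.05, 2 were higher in Cre minus GFP, 7 higher and 1 lower in WNT4 minus GFP, and 4 higher and 1 lower in WNT4 minus Cre. Over all probe sets, those never above background included, 1.01%, 9.12% and 5.07% were higher and 1.22%, 3.91% and 1.17% lower. Axin1, like Axin2 a scaffold of the destruction complex, was 0.51 ± 0.14 higher with WNT4 than with GFP (adjusted p = 0.231) and 0.47 ± 0.14 higher than with Cre. The Frizzled gene Fzd5 was 0.41 ± 0.16 higher with WNT4 than with Cre. Ctnnb1, which encodes beta-catenin, has 3 probe sets, 1420811_a_at, 1430533_a_at and 1450008_a_at. In WNT4 minus GFP they were 0.53 ± 0.21, 0.48 ± 0.23 and 0.53 ± 0.24 (limma adjusted p = 0.350, 0.417 and 0.391). In Cre minus GFP they were 0.04 ± 0.21, 0.10 ± 0.23 and 0.20 ± 0.24. Wnt4 1450782_at was 1.23 ± 0.34 higher with Cre than with GFP and -1.30 ± 0.34 in WNT4 minus Cre (adjusted p = 1.0 and 0.773). The second Wnt4 probe set, 1441687_at, was 1.30 ± 0.49 higher with Cre but -0.33 ± 0.49 in WNT4 minus Cre (adjusted p = 1.0 and 0.986), so the probe sets disagree in the latter. Lgr6, an R-spondin receptor like Lgr5, was -1.96 ± 0.67 with WNT4, and the Frizzled gene Fzd3 was -0.51 ± 0.27 with Cre. The medians of the 27 differences were 0.04, 0.10 and 0.03.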

How the data were processed

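The authors deposited log2 expression values. The submitters' processing notes name RMA, and the sources used here do not give its version. RMA corrects background and normalizes between arrays, so differences in total signal are already reduced. The 9 array medians were 5.44 to 5.54, and no pair of arrays shared more than 4.53% equal values. Of 45101 probe sets, 64 controls were left out; 34945 had 1 symbol, 932 several and 9160 none. Entrez IDs served to update 34741 symbols.

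limma 3.58.1 (R 4.3.3) was fitted to all arrays and probe sets with no covariate (6 residual and 2.8 prior degrees of freedom; Benjamini-Hochberg, threshold 0.05), after it was tested on simulated data. The number of arrays limits the precision. Same-numbered Cre and WNT4 arrays deviated together (r = 0.21, 0.24 and 0.77). For replicates 1 and 2, arrays of unlike number correlated as much (Cre 2 with WNT4 1, 0.32, and Cre 1 with WNT4 2, 0.28). No Cre and WNT4 pair of unlike number reached the 0.77 of replicate 3. Same-numbered GFP arrays deviated with them for replicate 3 (r = 0.31 with Cre and 0.35 with WNT4) but not for replicates 1 and 2 (r from -0.31 to 0.01). The main fit used no pairing, and the replicate number entered only as a block over all arrays in an alternative. Members and lists were chosen with earlier results of these data known. Besides all members, Wnt4 and Ctnnb1 were named, as were the 3 genes of lowest p in each list and comparison. The genes most like Axin2 were ranked by Pearson's r among probe sets above background with a range of at least 1. Alternatives were other scalings, centrings, filters, background limits, array weights, a replicate block and leaving out arrays.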

Additional observations from a re-analysis of the deposited data

How the results depend on the processing

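No member passed the adjusted threshold under any alternative in Cre minus GFP, in WNT4 minus Cre or in the slopes on Axin2; in WNT4 minus GFP 0 to 3 passed, the 3 without WNT4 2. With 1 array left out, Axin2 ran from 1.06 to 1.72 in Cre minus GFP, 0.47 to 0.86 in WNT4 minus GFP and -1.07 to -0.41 in WNT4 minus Cre, and over all alternatives its adjusted p in Cre minus GFP was 0.564 to 1.0. With the replicate block, Axin2 was 1.41, 0.65 and -0.76 with adjusted p of 0.564, 0.168 and 0.656, and the block changed no call. Leaving out Cre 1 and WNT4 1 together, chosen after seeing the data, gave 1.06, 0.49 and -0.58 for Axin2.

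Differences near 0 turned sign, and their cause was not tested. Quantile normalization gave -0.036 for Apcdd1 1437604_x_at, Cre minus GFP, -0.075 for Znrf3 1435608_at, WNT4 minus GFP and -0.11 for Bambi 1423753_at, WNT4 minus Cre, and 75th percentile centring gave -0.048, -0.062 and -0.088 for them. Without Cre 3 and WNT4 3, Apcdd1 1437604_x_at, Cre minus GFP was -0.036 and Nkd1 1429507_at, WNT4 minus Cre was 0.023. Without Cre 1 and WNT4 1, Apcdd1 1437604_x_at was -0.0088 in Cre minus GFP, 0.020 in WNT4 minus GFP and 0.029 in WNT4 minus Cre, Bambi WNT4 minus Cre was -0.025 and Nkd2 1419466_at, WNT4 minus Cre was 0.0023. With 1 array left out, Apcdd1 1437604_x_at ran from -0.036 to 0.047 in Cre minus GFP, -0.10 to 0.020 in WNT4 minus GFP and -0.11 to 0.019 in WNT4 minus Cre, Znrf3 1435608_at from -0.020 to 0.27, -0.016 to 0.16 and -0.18 to 0.11, Bambi WNT4 minus Cre from -0.39 to 0.30 and Nkd1 1429507_at, WNT4 minus Cre from -0.053 to 0.0073. The 4 background limits gave 7 to 9 member probe sets above background on all arrays, and probe sets at the limit cannot show a low level of transcript.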

Other observations

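Besides Fzd1, the genes whose levels were most like those of Axin2 over the 9 arrays were Mt1 (r = 0.919, a metallothionein that binds metal ions), Pkdcc (r = 0.898, a secreted protein kinase), Zhx2 (r = 0.886, a zinc finger and homeobox factor) and Cdkn2b (r = 0.832, an inhibitor of cyclin-dependent kinases). Mt1 read 6.21, 6.20 and 6.13 on GFP arrays 1, 2 and 3, 8.02, 6.73 and 7.54 on the Cre arrays and 6.56, 6.64 and 6.73 on the WNT4 arrays, so the treated arrays all lay above GFP and Cre 1 was highest. Cdkn2b read 8.04, 7.94 and 7.86 with GFP, 10.49, 8.74 and 8.80 with Cre and 10.29, 8.64 and 8.72 with WNT4, with replicate 1 highest in all 3 groups. Without Cre 1 and GFP 2, r with Axin2 was 0.839 for Mt1, 0.567 for Pkdcc, 0.857 for Zhx2 and 0.643 for Cdkn2b. These genes were ranked by that likeness, so the values describe the ranking and no test is given.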
